A study of Mus musculus with 12 samples.

Results

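Unilateral ureteral obstruction was followed at day 5 against day 0 in the kidneys of mice that lack Sprr2f, with the transcriptome of whole left kidney as the readout. The comparison took in every library with both the knockout genotype and a day label: 3 libraries of day 5 and 4 of day 0, which is 7 of the 12 libraries in the series. The other 5 libraries, from wild type kidneys (2 of day 0, 3 of day 5), entered the statistical model and are quoted only where the knockout result is set beside them.

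In unilateral ureteral obstruction, blocked urine flow raises pressure in the tubules of one kidney. Tubule epithelial cells then lose differentiated functions, immune cells enter the interstitium, and fibroblasts and pericytes turn into matrix-producing myofibroblasts, so the model is widely used to study tubule injury and fibrosis. Sprr2f belongs to the small proline-rich proteins, which are cross-linked into the cornified envelope of squamous epithelia and are also produced by other epithelia under stress. The series title places the gene in the control of reactive oxygen species.

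All mice carried the C57/BL6 strain label. The treatment text describes closure of the left ureter with a nontraumatic microvascular clamp at 8 to 12 weeks of age. The left kidney was taken on day 5 in one knockout group and on day 0 in the other, and RNA was made from a frozen part of it. Day 0 is counted from obstruction in the treatment text, and whether those ureters were clamped or sham-operated, how the knockout allele was made, and whether each library came from a separate mouse are not given in the sources used here. The p-values therefore measure the spread between libraries within groups, estimated over all 12 libraries of the model, wild type included. The libraries were made with an mRNA kit and read as 50-base sequences, and each of these 7 held 16567256 to 19398882 reads assigned to genes. Levels are given as scaled CPM, the deposited CPM (reads of a gene per fixed total of reads in its library) divided by a TMM scaling factor. Values are always listed in the order of replicates 1 to 4 at day 0 and replicates 1 to 3 at day 5.

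The targeted gene was read first. Sprr2f (chromosome 3, 92365187 to 92366442, plus strand, GRCm38) was covered by 5, 2, 0 and 0 reads in unobstructed knockout libraries and by 0, 39 and 76 in obstructed ones. For wild type the unobstructed libraries gave 2 and 0 reads and the obstructed ones 482, 447 and 1138. All knockout day 5 libraries were thus below all wild type day 5 libraries, yet replicates 2 and 3 were not at 0. The Sprr2 genes are near-identical neighbours, so reads could have been split between them in the counting and single members are uncertain. The difference between the knockout days, log2 fold change 1.49 ± 0.55 (SE; limma, Benjamini-Hochberg adjusted p = 0.0362), was lost when replicate 2 or 3 of day 5 or replicate 2, 3 or 4 of day 0 was left out (1.23, 0.86, 1.53, 1.40 and 1.40), with voom (2.52) and with a pseudocount of 0.1 (2.33). Without replicate 1 of day 5 the value was 2.36.

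Of 15 Sprr genes listed, 5 passed the filter on low reads and these 5, Sprr2f among them, were called higher (limma, Benjamini-Hochberg adjusted p under 0.05). In the comparison as a whole, 29.4% of tested genes were called higher. Sprr2f, Sprr2g and Sprr2h had at most 5 reads in any day 0 library, so they passed the filter only through obstructed libraries. Such genes could hardly be called lower, and their part in the count of 5 is no test of a rise in the family. Sprr1a, a stress-responsive envelope precursor, stood at 13.7, 7.14, 9.33 and 3.69 scaled CPM at day 0 and at 90.8, 119 and 100.2 at day 5. All 3 obstructed kidneys lay above all 4 day 0 kidneys, with a log2 fold change of 3.66 ± 0.35 (limma, adjusted p = 2.16e-06). Sprr2g went from 1, 1, 1 and 0 reads to 186, 398 and 146 reads, with no overlap (log2 fold change 4.30 ± 0.32, limma, adjusted p = 2.76e-07). Sprr2h had no read in the 4 day 0 libraries and 2, 60 and 11 reads at day 5, so that replicate 2 held most of them. Wild type day 5 libraries had 0, 2 and 1 Sprr2h reads. Without replicate 2 of day 5, 4 of the 5 Sprr genes passed the filter and 3 were called.

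Markers of kidney were present in every knockout library: Kap, the androgen-regulated protein of the proximal tubule, was at 40111, 49484, 43395 and 34094 scaled CPM at day 0, and Umod, uromodulin of the thick ascending limb, at 2736, 1919, 2154 and 2032. The libraries did not share their sex-chromosome transcripts, although the series title speaks of female mice. The Y-linked genes Ddx3y, Uty, Kdm5d and Eif2s3y summed to 112 CPM or more in all 4 day 0 libraries and in day 5 replicate 2, whereas day 5 replicates 1 and 3 had Xist in their place (Xist 0.803, 0.835, 0.389 and 1.31 scaled CPM at day 0 and 764, 1.87 and 537 at day 5). Transcript pattern and day therefore differ together for 2 of the 3 obstructed kidneys. A fit with the pattern as a covariate, estimated over the 12 libraries, and a fit on Y-linked libraries alone are given where they change a result. Mitochondrially encoded transcripts took 8.31 to 9.26% of all reads before obstruction and 4.07 to 4.34% after it, and the 10 genes with most reads held 14.7 to 16.6% and 7.56 to 8.12%. Day 5 replicate 2 stood apart from replicates 1 and 3: the chi-square per degree of freedom of its read counts against theirs was 43.1 and 49.1, against 13.3 between replicates 1 and 3.

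Between day 0 and day 5, 54.8% of tested genes were called. Day and sex-linked transcript pattern differ together in part, and with the pattern as a covariate 856 of the rises and 537 of the falls lost their call. Of 18093 tested genes, 5328 were called higher at day 5 (29.4%) and 4589 lower (25.4%) (limma on log2(scaled CPM + 0.5), Benjamini-Hochberg adjusted p under 0.05). A fold change on this scale understates the change of low genes. The rise was at least 2-fold for 2110 genes (11.7%) and at least 8-fold for 89 (0.492%); the fall was at least 2-fold for 1442 (7.97%) and at least 8-fold for 42 (0.232%). The 3 obstructed kidneys did not overlap the 4 others in 9972 genes (55.1% of those tested), and 9192 genes (50.8% of those tested) were both clear of overlap and called. Genes called higher took 10.5 to 11.7% of CPM in the day 0 libraries and 27.8 to 30.2% at day 5, and genes called lower took 65.5 to 68.3% and 39.5 to 41.7%. The balance between rises and falls depends on scaling: with library size alone, 82.3% of calls were rises against 53.7% here, and the median of all tested genes moved from 0.07 to 0.45 on the log2 scale. Beside every list below stands this median of 0.07, and with library size alone the medians of the 41 lists with at least 5 tested genes moved up by 0.27 to 0.45. In whole kidney, fewer cells of a type and less RNA per cell cannot be told apart.

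**Figure D1:**
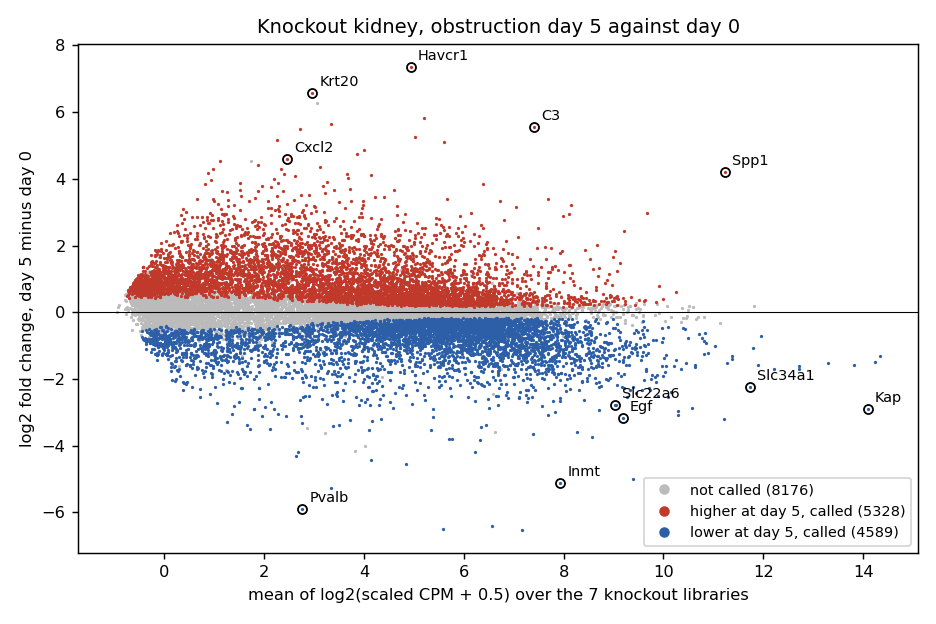
Log2 fold change of day 5 over day 0 in knockout kidney against mean level for each of the 18093 tested genes, with calls in colour and circles at 11 named genes. The rises reach 7.35 at Havcr1, and the falls among the circled genes reach -5.91 at Pvalb. Kap and Slc34a1 lie far to the right and below the zero line.

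The largest called rises were in markers of injured tubule epithelium. The rule for naming the largest rises and falls required no overlap between days, which 55.1% of all tested genes showed. Havcr1 (chromosome 11, 46735080 to 46779578, plus strand), which encodes the kidney injury molecule KIM-1 that lets tubule cells take up dead cells, was at 1.92, 2.58, 4.99 and 2.98 scaled CPM at day 0 and at 394, 1355 and 332 at day 5. Every obstructed kidney was above every day 0 kidney, and replicate 2 was the highest. The log2 fold change was 7.35 ± 0.49 (SE; limma, adjusted p = 1.40e-07), and 6.71 without day 5 replicate 2. Krt20, a keratin that injured proximal tubules switch on (chromosome 11, 99428403 to 99438150, minus strand), went from 0.494, 0.304, 0.389 and 1.61 to 71.1, 249.6 and 64.7 scaled CPM. The groups did not overlap, and replicate 2 again stood highest: the log2 fold change of 6.57 ± 0.45 (limma, adjusted p = 1.55e-07) became 5.94 without it. Lcn2, the iron-carrier-binding protein NGAL, rose from 6.18, 7.82, 7.39 and 3.69 to 355, 523 and 276 (log2 fold change 5.83 ± 0.26, limma, adjusted p = 2.06e-08).

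All 27 listed tubule injury genes rose, with a median log2 fold change of 2.62. Spp1, which encodes the secreted matrix protein osteopontin, was at 686, 669, 709 and 695 scaled CPM at day 0 and 13076, 14084 and 11117 at day 5. Its obstructed values lay close together (log2 fold change 4.20 ± 0.18, limma, adjusted p = 1.74e-08). Vcam1, an adhesion molecule that injured tubules display, was at 11.3, 9.26, 10.1 and 10.2 and then at 228, 757 and 285, with replicate 2 well above the others. The hyaluronan receptor Cd44 showed the same order, 4.26, 3.64, 1.88 and 2.98 at day 0 and 61.8, 203 and 67.2 at day 5. Sox9, a transcription factor of regenerating tubule cells, went from 0.989, 0.531, 0.843 and 1.37 to 10.1, 68.003 and 14.8 scaled CPM (log2 fold change 3.99 ± 0.49, limma, adjusted p = 2.12e-05). Sox4, a related factor, differed little between the obstructed kidneys (171, 154 and 166, against 39.9, 33.6, 36.3 and 36.2 at day 0). The smallest rises were in Itgb6, an epithelial integrin chain that activates latent TGF-beta (0.36), and Krt7 (0.50). Without day 5 replicate 2, 26 of the 27 rose and the median was 2.26.

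Other large rises lay outside that list. Serpina10, the inhibitor of coagulation factor Xa, went from 1.36, 1.37, 1.75 and 1.19 to 76.7, 133 and 82.5 scaled CPM, a log2 fold change of 5.64 ± 0.24 (limma, adjusted p = 1.74e-08). Aoc1, the diamine oxidase that breaks down histamine and putrescine, was even across the day 0 libraries (6.798, 6.23, 6.22 and 6.01) and rose to 203, 440.3 and 199. Lgi2 rose from 1.05, 0.304, 0.713 and 0.238 to 39.8, 35.9 and 32.6, without overlap. Socs3, the feedback inhibitor of STAT3 signalling, rose from 4.33, 3.72, 2.72 and 2.62 to 99.5, 121 and 111 (log2 fold change 4.87 ± 0.20, limma, adjusted p = 1.43e-08). Stra6, the cellular retinol importer, rose from 2.22, 1.59, 1.296 and 2.68 to 35.1, 64.1 and 49.5. A few transcripts had no read in all 4 day 0 libraries and 10 or more in each day 5 library. Serpina3i had 35, 36 and 18 reads at day 5, and Cxcr2 had 23, 43 and 14. Against a floor of 3 reads over the group, the rises were at least 38.7-fold and 34.7-fold by library totals, without TMM scaling. In the other direction, Lipo2 had 15, 28, 27 and 26 reads at day 0 and none at day 5, at least 24.6-fold lower by the same totals. The TMM factors, 0.79 to 0.88 at day 0 and 1.13 to 1.17 at day 5, would make both rises smaller and the fall larger.

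**Figure D2:**
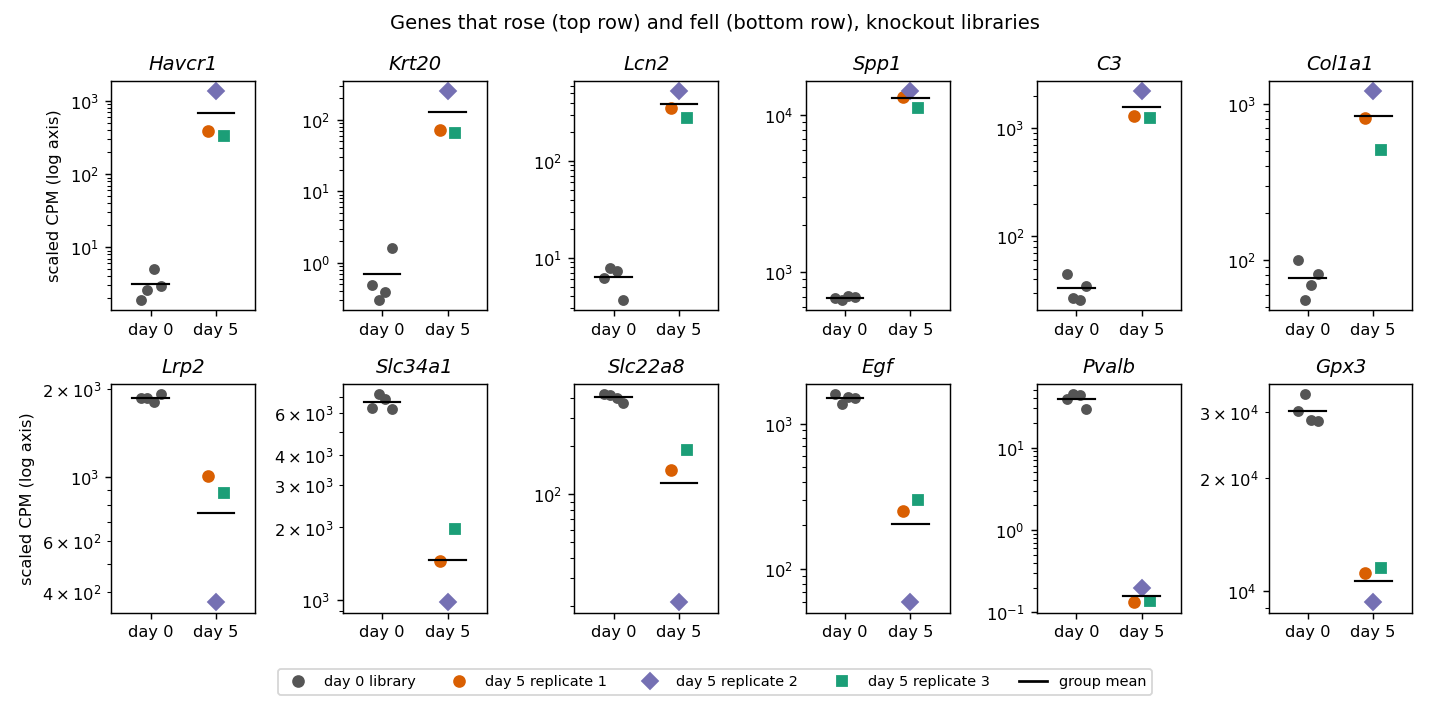
Scaled CPM on a log axis in each knockout library for 6 genes that rose (top) and 6 that fell (bottom), with group means as lines. No day 5 library overlaps a day 0 library in these 12 genes, and replicate 2 (diamonds) is the highest in all 6 rising genes and the lowest in 5 of the 6 falling genes, the exception being Pvalb.

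The proximal tubule, which reabsorbs most filtered glucose, phosphate, amino acids and protein, showed the opposite course. Of 22 listed genes 20 fell and 1 rose, with a median of -1.64, against 25.4% of tested genes called lower. Slc34a1 (chromosome 13, 55398187 to 55415592, plus strand), the main sodium-phosphate cotransporter of the brush border, was at 6277, 7184, 6851 and 6232 scaled CPM at day 0 and at 1446, 975 and 1962 at day 5. The obstructed kidneys were all below (log2 fold change -2.24 ± 0.21, limma, adjusted p = 1.72e-06), and replicate 2 was the lowest. The organic anion transporters of the basolateral membrane fell as well: Slc22a6 (OAT1) from 1163, 1455, 1194 and 976 to 165, 189 and 166, and Slc22a8 (OAT3) from 424, 421, 398 and 373 to 141, 20.99 and 189.8. Slc22a6 was even over the obstructed kidneys. Slc22a8 was far lower in replicate 2, and its log2 fold change of -2.28 ± 0.73 (limma, adjusted p = 0.0188) became -1.30 with an adjusted p of 0.0876 when that library was left out. It was -3.84 with a covariate for the sex-linked transcript pattern described above and -4.22 on the libraries with Y-linked transcripts alone, called in both.

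Genes of gluconeogenesis, another task of the proximal tubule, fell with the transporters. G6pc, the last enzyme of glucose release, went from 498, 521, 419.9 and 521 to 69.4, 55.1 and 118 scaled CPM (log2 fold change -2.66 ± 0.22, limma, adjusted p = 5.95e-07). Fbp1, fructose-1,6-bisphosphatase, went from 1250.01, 1439, 1326 and 1239 to 315, 178 and 368. Neither overlapped between days. The endocytic receptors megalin (Lrp2) and cubilin (Cubn) had log2 fold changes of -1.44 ± 0.30 and -1.10 ± 0.21, and their partner amnionless (Amn) one of -1.30 ± 0.12; all 3 fell. Kl, the co-receptor for the phosphate hormone FGF23, fell by a log2 of 2.04, and the transcription factor Hnf4a, which maintains proximal tubule identity, by 1.07. Slc5a12, a lactate transporter, had a value of -1.23 ± 0.51 that did not pass the test (limma, adjusted p = 0.0571). The exception to the falls was Cyp27b1, the enzyme that activates vitamin D, which rose from 6.303, 11.9, 11.9 and 6.19 to 29.3, 39.2 and 30.8 (log2 fold change 1.86 ± 0.24, limma, adjusted p = 2.66e-05).

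Of 18 brush border genes 13 fell and none rose, with a median of -1.17. With the pattern covariate 16 fell and none rose (median -1.34). The metalloprotease subunit Mep1b fell from 316, 277, 285 and 310.2 to 52.2, 41.4 and 56.1 scaled CPM (log2 fold change -2.57 ± 0.19, limma, adjusted p = 2.33e-07), and the glutathione-cleaving enzyme Ggt1 from 1652, 1780.2, 1535 and 1291 to 376, 415 and 386. Neither overlapped between days. The scaffold Pdzk1 fell by 1.46 and the fatty acid transporter Slc27a2 by 1.51 on the log2 scale. Ace, which converts angiotensin I, had a value of -1.64 ± 0.16. Members that did not pass included Slc5a1 (-0.16), Mme (-0.42), Dpp4 (-0.32) and Cdhr2 (-0.30).

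The promoters of these genes were searched for the letters CAAAGTCCA on either strand, a core that binds HNF4 factors, in the 250 bases before each RefSeq start site (GRCm38.p6). Of 15 brush border genes with a promoter 2 held it, Slc3a1 and Treh, against 0.384% of all 32851 promoters of that length; none of 17 proximal tubule promoters did. Slc3a1, the heavy chain of the cystine transporter, was at 379.8, 369.8, 353 and 378 scaled CPM at day 0 and at 196, 133 and 191 at day 5, and Treh, trehalase, at 164, 194, 179 and 153 and 35.5, 46.8 and 32.9. Both promoters are shown because both genes fell without overlap (log2 fold changes -1.11 ± 0.14 and -2.16 ± 0.26). The match, in capitals, starts 39 bases before the Slc3a1 start site (chr17:85028097-85028346, plus strand) and 71 bases before that of Treh (chr9:44672983-44673232, plus strand, motif on the reverse strand).
Slc3a1: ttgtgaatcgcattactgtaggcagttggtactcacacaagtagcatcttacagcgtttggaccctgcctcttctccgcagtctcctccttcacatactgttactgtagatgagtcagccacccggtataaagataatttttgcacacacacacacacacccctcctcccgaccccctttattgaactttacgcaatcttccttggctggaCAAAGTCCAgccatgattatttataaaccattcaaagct
Treh: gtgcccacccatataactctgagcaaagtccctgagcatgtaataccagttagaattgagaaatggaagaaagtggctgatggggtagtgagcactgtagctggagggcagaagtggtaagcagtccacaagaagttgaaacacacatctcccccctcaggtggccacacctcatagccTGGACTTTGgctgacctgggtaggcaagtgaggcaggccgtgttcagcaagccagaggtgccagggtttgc
A match describes letters only and says nothing about binding. This motif, and those below, were picked from several searched after the values were known. AP-1 letters (TGANTCA) were in 6.75% of all promoters and in 3 of 21 tubule injury promoters. They were also in 3 of 15 interferon, 2 of 15 brush border, 1 of 11 chemokine and 0 of 17 proximal tubule promoters, so they were not particular to injury genes. HNF1 letters (GTTAAT, any 2 bases, TTAA) were in 0.131% of all promoters and in 1 of 17 proximal tubule promoters, that of Hnf4a.

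Segments further along the nephron also held falls. In the thick ascending limb, which dilutes urine by salt uptake, 10 of 14 genes fell and 1 rose (median -0.86, and -0.42 with library size alone; 8 fell without day 5 replicate 2 and 12, with a median of -1.33, on Y-linked libraries). Egf, which this segment releases into urine, was at 1593, 1362, 1525 and 1503 scaled CPM at day 0 and at 251, 59.4 and 301 at day 5. The groups lay far apart, with replicate 2 the lowest; the log2 fold change of -3.17 ± 0.44 (limma, adjusted p = 5.62e-05) was -2.44 without it. Umod, uromodulin, fell by only 0.62 (limma, adjusted p = 0.0464), from 2736, 1919, 2154 and 2032 to 1668, 862 and 2002, with overlap of replicate 3; with the pattern covariate its value was -0.97. The salt cotransporter Slc12a1 fell from 1592, 1158, 1149 and 1457 to 563, 186 and 633. Cldn14, a claudin that blocks calcium passage between cells, rose from 0.0618, 0.531, 0.0648 and 0.119 to 2.12, 1.77 and 3.95 scaled CPM. At these day 0 levels it could hardly be called lower, so the count of 1 rise in this list is no test.

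In the distal convoluted tubule 11 of 15 genes fell and 2 rose (median -0.88, and -0.43 with library size alone; 9 fell without day 5 replicate 2). Pvalb (chromosome 15, 78191114 to 78206400, minus strand), the calcium-binding protein parvalbumin that marks the early part of the segment, was nearly lost: 39.4, 44.7, 44.1 and 29.2 scaled CPM at day 0 and 0.132, 0.197 and 0.139 at day 5. The obstructed values correspond to 3, 4 and 3 reads, so the log2 fold change of -5.91 ± 0.18 (limma, adjusted p = 3.16e-09) rests on the day 0 level. The calcium buffers of this segment fell with it, Calb1 from 508, 548, 502 and 579 to 122, 52.7 and 91.8 and S100g from 1360.3, 1329, 1310.4 and 1245 to 210.4, 211 and 253. Klk1, tissue kallikrein, fell from 3117, 3199, 2912 and 2794 to 368, 305 and 516 (log2 fold change -2.95 ± 0.20, limma, adjusted p = 1.42e-07). The calcium entry channel Trpv5 rose instead, from 15.9, 20.04, 20.2 and 20.2 to 59.4, 34.8 and 49.8, without overlap, and the plasma membrane calcium pump Atp2b1 rose by 0.34. The sodium chloride cotransporter Slc12a3 fell by 0.88 (limma, adjusted p = 0.0354) and was at -1.54 with the pattern covariate.

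Of 12 genes of collecting duct principal cells 1 rose and 2 fell, against 29.4% and 25.4% of all tested genes, and the median of -0.06 became 0.39 with library size alone. With the pattern covariate 1 rose and 5 fell (median -0.27), and on Y-linked libraries 1 and 5 of 11 (median -0.47). Aqp2, the vasopressin-regulated water channel, was at 342, 258, 370.2 and 228 at day 0 and at 407, 210.4 and 275 at day 5, and the groups overlapped. Aqp3, the basolateral water channel of the same cells, fell from 153, 126, 146 and 127 to 73.7, 48.2 and 64.2 (log2 fold change -1.16 ± 0.13, limma, adjusted p = 1.04e-05). Gata3 rose from 18.2, 16.7, 18.6 and 16.5 to 33.2, 29.8 and 35.3. The sodium channel subunit Scnn1a fell by 0.66, a call lost with library size alone (-0.21). In acid-base regulating intercalated cells 10 of 15 genes fell and none rose (median -0.68, -0.23 with library size alone and -1.04 with the pattern covariate; 8 fell without day 5 replicate 2). Slc4a1, the anion exchanger of acid-secreting cells, went from 67.9, 57.9, 54.1 and 58.4 to 17.1, 8.43 and 17.6 scaled CPM, and pendrin (Slc26a4), that of base-secreting cells, from 70.7, 84.3, 88.7 and 102 to 36.1, 24.4 and 45.9.

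Of 12 podocyte genes 3 rose and 3 fell, shares near those over all tested genes (29.4% and 25.4%), with a median of 0.05. With the pattern covariate 2 rose and 5 fell (median -0.28). The actin-binding Synpo rose by 0.59, while Clic5 fell by 0.80 and Vegfa by 0.74, the last lost with library size alone (-0.28). Nephrin (Nphs1) was at 18.1, 19.2, 19.6 and 23.3 and 20.4, 10.8 and 24.4, and the groups overlapped; it was not called, but with the covariate it was (-0.74). Of 15 endothelial genes 2 rose and 1 fell (median -0.05, and 0.40 with library size alone; 1 rose and 3 fell on Y-linked libraries). Kdr, the main VEGF receptor, fell from 56.8, 46.2, 33.4 and 41.7 to 27.7, 24.4 and 29.03 (log2 fold change -0.69 ± 0.15, limma, adjusted p = 0.00149; -0.24 and not called with library size alone). Pecam1 overlapped between days (83.98, 55.5, 56.8 and 63.3 and 78.3, 73.9 and 78.1).

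Mitochondrial energy genes fell together. All 22 listed nuclear subunits of oxidative phosphorylation fell (median -1.24), and so did all 13 transcripts of the mitochondrial genome (median -1.50). Uqcrfs1, the iron-sulfur protein of complex III, was at 597, 630.5, 576 and 545 scaled CPM at day 0 and at 211, 199.5 and 208 at day 5, with little spread within either day (log2 fold change -1.51 ± 0.08, limma, adjusted p = 3.02e-08). The complex II subunit Sdhb fell from 464, 515, 453 and 437 to 169, 162 and 189. For mt-Nd1, a complex I subunit encoded in mitochondria, the values were 15433, 18345, 15445 and 14218 and then 5412, 5889 and 5205. These obstructed kidneys lay within a narrow band, replicate 2 included.

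In the citric acid cycle 15 of 16 genes fell (median -1.16), among them Suclg1 of succinyl-CoA ligase (-1.35 ± 0.07). The listed gene that rose was Pck2, the mitochondrial form of phosphoenolpyruvate carboxykinase, from 25.5, 22.1, 23.8 and 23.1 to 44.8, 60.3 and 47.9 (log2 fold change 1.08 ± 0.12, limma, adjusted p = 8.83e-06). In fatty acid oxidation, the main energy source of the proximal tubule, 20 of 21 genes fell (median -1.03; 18 without day 5 replicate 2). Hadh fell from 609.95, 712, 638 and 584 to 195, 196 and 202 and the electron carrier Etfa from 488, 554, 528 and 493 to 164, 161 and 188.

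Amino acid breakdown followed: of 20 listed genes 18 passed the filter, 12 fell and none rose (median of the 18: -1.64). With the pattern covariate 17 fell and none rose (median -1.73). Aass, the first enzyme of lysine breakdown, went from 463, 589, 561 and 531 to 95.3, 111 and 106 scaled CPM (log2 fold change -2.36 ± 0.11, limma, adjusted p = 2.06e-08), and Ivd of leucine breakdown from 612, 711, 624 and 603 to 159.9, 166 and 189.8. Both were even over the obstructed kidneys. Hpd, of tyrosine breakdown, was at 12.6, 2.17 and 23.6 at day 5 against 34.1, 36.8, 35.7 and 37.4, did not overlap, and did not pass (log2 fold change -1.95 ± 0.84, limma, adjusted p = 0.0672). It was called with the pattern covariate (-3.76, limma, adjusted p = 8.34e-07), on Y-linked libraries (-3.74), with the compared groups alone (-1.95), and without day 5 replicate 3 (-2.62) or either wild type day 0 library (-1.98 in both). Glycolysis had no common direction: 5 of 18 genes rose and 8 fell (median -0.08, and 0.37 with library size alone). The share of rises was near the 29.4% of all tested genes, while 25.4% of those fell. The rises were in Hk2 (1.24, 0.607, 2.33 and 1.79 to 9.302, 15.5 and 8.92), the inducible hexokinase, the lactate exporter Slc16a3 (2.47, 1.67, 1.296 and 1.67 to 10.01, 30.5 and 14.9), Pfkp (0.66), Pfkfb3 (0.76) and Pkm (0.26), the last lost when any 1 of 6 libraries was left out (knockout day 0 replicates 2, 3 and 4, day 5 replicate 2, or either wild type day 0 library; 0.17 without day 5 replicate 2). Pgk1 fell by 1.04 and Tpi1 by 0.94.

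The series title names reactive oxygen species, and enzymes that remove and make them were listed apart. Of 19 antioxidant enzymes 17 fell and 1 rose (median -0.98). With the pattern covariate 16 fell and 1 rose (median -0.79), and on Y-linked libraries the median was -0.71. Catalase (Cat), which breaks down hydrogen peroxide in peroxisomes, was at 989, 1124, 1024 and 942 scaled CPM at day 0 and at 275, 265 and 310.2 at day 5 (log2 fold change -1.85 ± 0.08, limma, adjusted p = 2.06e-08). The mitochondrial superoxide dismutase Sod2 fell from 477, 494, 450.3 and 438 to 168, 150.4 and 172. Gpx3, the secreted glutathione peroxidase made by proximal tubules, fell from 30221, 33521, 28580.4 and 28433 to 11164, 9332 and 11501 (log2 fold change -1.50 ± 0.29, limma, adjusted p = 7.30e-04). None of these overlapped. The peroxidase Gpx8 of the endoplasmic reticulum rose, from 18.6, 14.1, 14.2 and 14.2 to 36.2, 27.2 and 29.9.

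NRF2 is the transcription factor that induces detoxifying genes under oxidative stress. Of 15 listed targets 8 fell and 3 rose, against 25.4% and 29.4% of all tested genes (median -0.46, and -0.01 with library size alone). Gclm, a subunit of the enzyme that limits glutathione synthesis, fell from 370.5, 403, 382 and 374 to 178, 209 and 183, and Nqo1, a quinone reductase, from 45.2, 53.5, 50.4 and 55.1 to 23.2, 28.2 and 30.6. Both groups were clear of each other. Without day 5 replicate 2, 8 fell and 1 rose, and with the pattern covariate 5 rose. The 3 rises were G6pdx (0.40 ± 0.11), Hmox1 (0.82 ± 0.31) and Slc7a11 (1.18 ± 0.41). Hmox1, heme oxygenase, was at 29.4, 33.03, 30.01 and 30.7 and then at 33.5, 116 and 41.8, so that replicate 2 carried the rise; without it the value was 0.28 (limma, adjusted p = 0.0951), and leaving out any 1 day 0 library also ended the call. With the covariate it was 1.36 and on Y-linked libraries 1.91, both called. Slc7a11, the cystine importer, became 0.85 and lost its call without that library, and also lost it without day 0 replicate 2 or 3.

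NADPH oxidases are enzymes whose product is superoxide or hydrogen peroxide. Of 12 listed genes 9 passed the filter, 5 rose and 2 fell (median of the 9: 1.89). The rises were in the subunits of the phagocyte enzyme, among them Cybb (13.8, 8.81, 7.26 and 9.35 to 35.6, 35.8 and 38.7), Ncf1 (4.26, 2.58, 1.88 and 3.15 to 17.5, 26.4 and 18.9), Ncf4 (1.90 ± 0.17) and Rac2 (1.95 ± 0.18). In these 4 the obstructed kidneys were above the others. Nox4, the tubular oxidase, was at 192, 194, 215 and 209.9 scaled CPM at day 0 and at 149, 56.8 and 127 at day 5. Its log2 fold change of -0.98 ± 0.35 (limma, adjusted p = 0.0319) was -0.56 without replicate 2 (limma, adjusted p = 0.157). The call was also lost without day 0 replicate 3 or 4. It was lost too with edgeR (adjusted p = 0.0526) and with library size alone (-0.53). With the pattern covariate the value was larger, -1.75 (limma, adjusted p = 1.42e-07), and on Y-linked libraries it was -1.81 (limma, adjusted p = 2.39e-05). Cyba, the membrane subunit shared by several oxidases, fell by 0.75, a call lost with library size alone and on Y-linked libraries alone (-0.30 and -0.26). Macrophage markers moved with the phagocyte subunits: all 19 rose, and their part in this result was not tested.

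Matrix genes rose without exception: 24 of 24, with a median of 2.34, also without day 5 replicate 2 and with the pattern covariate. Col1a1, a chain of fibrillar collagen I, was at 100.3, 55.7, 69.4 and 81.6 scaled CPM at day 0 and at 815, 1210.1 and 508 at day 5 (log2 fold change 3.40 ± 0.29, limma, adjusted p = 1.02e-06). The collagen III gene Col3a1 went from 149.7, 82.4, 96.9 and 119 to 1092, 1157 and 818. Fibronectin (Fn1), an early component of scar matrix, differed little between obstructed kidneys: 64.3, 40.01, 50.6 and 53.2 at day 0 and 450.3, 457 and 463 at day 5 (log2 fold change 3.14 ± 0.16, limma, adjusted p = 3.02e-08). The basement membrane collagens Col4a1 (1.49 ± 0.17) and Col4a2 (1.30 ± 0.18) rose as well, and the cross-linking enzyme Lox rose by 3.18. Postn, periostin, was uneven, at 46.6, 111 and 22.9 against 7.29, 4.02, 3.69 and 3.57.

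Among 22 myofibroblast and TGF-beta genes 19 rose and none fell (median 1.32). Acta2, the smooth muscle actin that defines the myofibroblast, rose from 43.5, 39.8, 48.2 and 34.8 to 187, 139 and 213 scaled CPM (log2 fold change 2.08 ± 0.19, limma, adjusted p = 1.38e-06). The ligands Tgfb1 (1.48 ± 0.13), Tgfb2 (1.90 ± 0.31) and Tgfb3 (2.02 ± 0.28) all rose, as did the activin chain Inhba, from 0.309, 0.835, 0.324 and 0.714 to 11.4, 6.41 and 9.57. Of the receptors, Tgfbr1 rose by 0.64 and Tgfbr2 by 0.90. The latent binding protein Ltbp2 rose from 1.11, 0.835, 1.56 and 0.714 to 27.2, 22.3 and 17.2. Tagln (0.64), Ltbp1 (0.45) and the inhibitor Smad7 (0.33) did not pass.

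All 19 macrophage genes rose (median 2.49), and 19 did so without day 5 replicate 2. Lyz2, lysozyme, was at 54.3, 43.1, 36.6 and 26.2 scaled CPM at day 0 and at 355, 523 and 322 at day 5 (log2 fold change 3.32 ± 0.21, limma, adjusted p = 1.16e-07). C1qb, a chain of the complement starter made by macrophages, went from 35.5, 26.3, 25.02 and 23.8 to 143, 197 and 148, and the signalling adaptor Tyrobp from 12.2, 9.11, 9.53 and 7.92 to 47.6, 58.6 and 48.03. No library overlapped in these 3 genes. Ccr2, the receptor of recruited monocytes, rose by 3.13, and Csf1r, the receptor that keeps macrophages alive, by 0.67, the smallest value in the list. Neutrophil transcripts were sparse: 5 of 10 listed genes passed the filter and 4 rose, against 29.4% of all tested genes. Cxcr2 had no read in the 4 knockout day 0 libraries, and S100a8 and S100a9 were under 1 scaled CPM in each. Genes this low at day 0 could hardly be called lower, so the count of 4 is no test of a rise. S100a8 and S100a9, the calprotectin subunits, were at 4.06, 10.6 and 1.44 and 5.38, 16.5 and 1.72 at day 5 against 0.494, 0.835, 0.194 and 0.417 and 0.247, 0.531, 0.972 and 0.655. They were highest in replicate 2, and without it their log2 fold changes of 2.27 and 2.50 were 1.63 and 1.75; on Y-linked libraries they were 3.49 and 3.94.

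Lymphocyte genes moved less. Of 14 T and NK cell genes 11 rose (median 0.80), but with the pattern covariate 6 did (median 0.59). On Y-linked libraries 12 of them were tested, with a median of 0.65. Cd4 was at 1.48, 1.21, 1.23 and 1.19 and then at 7.94, 2.71 and 6.503 scaled CPM, with replicate 2 the lowest of the obstructed kidneys (log2 fold change 1.69 ± 0.34, limma, adjusted p = 0.00101; 0.85 on Y-linked libraries). Lck, the kinase of T cell receptor signalling, went from 1.298, 1.06, 1.69 and 1.19 to 5.47, 4.43 and 6.73. Of 9 B and plasma cell genes 8 passed the filter and 3 rose: Cd79b, Ighm and Igkc. That share is near the 29.4% of all tested genes called higher, and the median of the 8 was 0.14. Ighm, the IgM heavy chain, rose from 8.34, 4.404, 6.94 and 6.73 to 16.6, 14.8 and 18.4. Igkc rose by 1.18, a call lost without day 5 replicate 3 (0.97) and on Y-linked libraries alone (1.17).

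Chemokine ligands, which draw immune cells into tissue, mostly rose: 12 of 16 rose and none fell (median 2.24). Cxcl1 was at 1.85, 7.29, 4.99 and 6.67 scaled CPM at day 0 and at 68.9, 129.6 and 77.7 at day 5, and Cxcl2 at 0.927, 1.06, 1.102 and 0.595 and 17.9, 54.4 and 38.2. Both are neutrophil attractants, both were clear of the day 0 range in every obstructed kidney, and their log2 fold changes were 4.10 ± 0.39 and 4.59 ± 0.30 (limma, adjusted p = 2.08e-06 and 1.20e-07). The monocyte attractant Ccl2 rose from 1.92, 0.835, 1.04 and 1.67 to 27.6, 57.4 and 17.3. Cxcl16 rose by 1.61. The 4 that did not pass were Ccl28 (1.01), Cxcl9 (-0.59), Cxcl12 (-0.52) and Cxcl14 (0.48). Cxcl9 overlapped fully, at 13.7, 5.62, 3.89 and 9.58 and 4.23, 5.08 and 4.92, whereas Cxcl10, another interferon-induced ligand, rose from 7.54, 3.796, 5.06 and 5.06 to 19.1, 30.7 and 42.2.

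NF-kB is the transcription factor of many inflammatory genes, and the letters GGGA, any base, TTTCC are a common form of its site. On either strand they stood in 0.356% of the 32851 RefSeq promoters (250 bases before the start site, GRCm38.p6) and in 2 of the 11 chemokine promoters found, those of Cxcl1 and Cxcl2. They were in none of 15 interferon, 21 tubule injury or 17 proximal tubule promoters. These promoters are shown because their genes are near neighbours on chromosome 5 and both rose. The capitals mark the match, which starts 71 bases before the start site in Cxcl1 (chr5:90890995-90891244, plus strand) and 97 bases before it in Cxcl2 (chr5:90903649-90903898, plus strand).
Cxcl1: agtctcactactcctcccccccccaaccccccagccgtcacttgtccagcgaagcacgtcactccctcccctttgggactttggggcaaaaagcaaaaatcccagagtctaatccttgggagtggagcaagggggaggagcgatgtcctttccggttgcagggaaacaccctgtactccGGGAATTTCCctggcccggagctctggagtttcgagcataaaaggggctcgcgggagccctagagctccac
Cxcl2: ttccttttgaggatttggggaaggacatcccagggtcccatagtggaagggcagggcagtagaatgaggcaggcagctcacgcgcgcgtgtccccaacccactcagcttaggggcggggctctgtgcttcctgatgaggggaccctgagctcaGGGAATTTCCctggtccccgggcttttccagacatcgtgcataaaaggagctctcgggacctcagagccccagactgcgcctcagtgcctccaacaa

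Cytokine genes were in part below the filter. Of 17 listed 14 passed the filter, 9 rose and none fell (median of the 14: 1.51, and 0.88 without day 5 replicate 2). Lif, an interleukin 6 family cytokine, was at 1.11, 0.607, 1.102 and 0.893 scaled CPM at day 0 and at 28.5, 25.97 and 27.8 at day 5, with the obstructed kidneys close together (log2 fold change 4.30 ± 0.22, limma, adjusted p = 3.05e-08). Il33, an alarmin released by damaged cells, went from 8.53, 7.74, 7.19 and 5.48 to 41.9, 42.9 and 31.1, and the macrophage growth factor Csf1 from 14.5, 12.9, 12.6 and 12.5 to 58.1, 78.01 and 49.8. The interleukin 1 antagonist Il1rn rose by 3.03 and Il1b by 1.52. Il6 (0.618, 0.304, 0.1296 and 0.0595 and 0.309, 1.23 and 0.232) and Tnf (1.98, 0.911, 0.1296 and 1.43 and 1.499, 3.01 and 1.81) overlapped between days and did not pass. Of 14 complement genes 12 rose and 2 fell (median 1.89). C3, the central component that all activation routes cleave, rose from 44.8, 26.9, 25.7 and 34.2 to 1312, 2202 and 1242 (log2 fold change 5.55 ± 0.44, limma, adjusted p = 4.49e-07), and its inactivator Cfi from 5.13, 5.998, 5.96 and 4.58 to 68.1, 43.1 and 69.8. The falls were in Cfb, of the alternative route (-1.03 ± 0.17), and in Cd55, which shields cells from complement (-1.04 ± 0.34). Cd55 lost its call with the pattern covariate (-0.52), with library size alone (-0.60) and without day 5 replicate 3 (-0.73).

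Interferon-stimulated genes rose modestly: 15 of 18 rose and none fell (median 0.94). Bst2, tetherin, which holds budding virus on the cell, was at 45.4, 35.8, 37.01 and 32.98 scaled CPM at day 0 and at 92.8, 86.98 and 78.5 at day 5 (log2 fold change 1.18 ± 0.10, limma, adjusted p = 8.55e-07). Isg15, a ubiquitin-like modifier, was at 7.29, 7.06, 6.35 and 6.19 and then at 15.03, 10.2 and 15.5, with replicate 2 the lowest of the obstructed kidneys. Irf9, part of the factor that reads the interferon response element, rose from 23.4, 28.5, 22.9 and 22.9 to 50.5, 53.1 and 52.8. Ifi44 (0.16) and Rsad2 (-0.46) were among those that did not pass. Antigen presentation genes, which interferon gamma also induces, all rose, 14 of 14 with a median of 1.36. Cd74, the class II invariant chain, rose from 292, 235, 213 and 173 to 779.9, 1016 and 922, and H2-Aa from 127, 99.8, 91.6 and 84.6 to 358, 372 and 399.

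The letters GAAA, any 2 bases, GAAA, a core of the interferon-stimulated response element, stood on either strand in 2.98% of all 32851 promoters and in 8 of the 15 interferon gene promoters found (Bst2, Gbp2, Gbp3, Ifit1, Ifit3, Isg15, Rsad2 and Stat2). The gene list was itself written from genes known to respond to interferon, so this is a description of that list. Isg15 (chr4:156200819-156201068, minus strand) and Bst2 (chr8:71537473-71537722, minus strand) are shown, since overlapping matches join in them: the capitals cover 3 matches in Isg15, the nearest starting 66 bases before the start site, and 2 in Bst2, the nearest starting 124 bases before it. Rsad2 holds the letters too, and its value of -0.46 did not pass the test.
Isg15: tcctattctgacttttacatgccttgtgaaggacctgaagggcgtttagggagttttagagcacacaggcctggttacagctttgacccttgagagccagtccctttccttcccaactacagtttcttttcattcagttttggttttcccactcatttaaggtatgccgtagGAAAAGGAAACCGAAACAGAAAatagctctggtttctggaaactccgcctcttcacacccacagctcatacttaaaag
Bst2: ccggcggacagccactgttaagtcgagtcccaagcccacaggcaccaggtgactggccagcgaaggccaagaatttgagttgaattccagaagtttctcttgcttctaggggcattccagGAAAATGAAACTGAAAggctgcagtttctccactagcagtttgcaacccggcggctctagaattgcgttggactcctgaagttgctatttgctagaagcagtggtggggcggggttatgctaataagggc

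Cell division genes rose: 22 of 25, with 1 fall (median 1.34; 20 without day 5 replicate 2). Mki67, which coats mitotic chromosomes, was at 8.096, 7.74, 11.9 and 17.7 scaled CPM at day 0 and at 38.1, 40.4 and 36.5 at day 5. Replicate 4 was the highest of the day 0 libraries and still below the obstructed kidneys (log2 fold change 1.79 ± 0.30, limma, adjusted p = 2.55e-04). The replicative helicase subunits Mcm4 (1.06 ± 0.11) and Mcm5 (1.34 ± 0.21) rose. The fall was in Ccnd1, the cyclin of early G1 phase, from 106, 116, 150.4 and 116 to 91.7, 51.6 and 67.3, a call lost with library size alone (-0.37). Of 18 p53 targets 9 rose and 2 fell, against 29.4% and 25.4% of all tested genes (median 0.46). Cdkn1a, the p21 inhibitor of the cell cycle, rose from 12.3, 16.02, 11.9 and 16.9 to 33.8, 61.1 and 51.9, while the p53 ligase Mdm2 was at 48.2, 53.4, 55.7 and 61.3 and 54.8, 65.05 and 55.9 and did not pass.

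Immediate early genes, the first transcribed after a stimulus, rose in 13 of 13 cases (median 1.496; 11 without day 5 replicate 2). Junb rose from 33.1, 23.3, 34.7 and 30.5 to 138, 208 and 144 scaled CPM and Fosl2 from 19.9, 15.6, 21.6 and 21.2 to 122, 157 and 98.7, both AP-1 subunits (log2 fold changes 2.40 ± 0.19 and 2.64 ± 0.17; limma, adjusted p = 3.89e-07 and 1.20e-07). Egr2 was uneven, at 11.8, 6.36 and 20.3 against 0.927, 0.228, 1.17 and 0.714. Of 21 cytoskeleton genes 20 rose (median 1.32), led by the actin-binding Tmsb10, from 103, 77.3, 78.6 and 77.98 to 473, 562 and 428, and by Tubb2b (2.52). In the unfolded protein response 8 of 15 rose and 2 fell, against 29.4% and 25.4% of all tested genes (median 0.29). The largest value was that of Atf3, a stress-induced transcription factor, from 3.52, 2.13, 2.98 and 2.798 to 19.05, 44.9 and 22.9, whereas the chaperone Hspa5 was at 551, 704, 601 and 435 and 606, 405 and 539 with overlap. The falls were Edem1 (-0.78 ± 0.11) and Herpud1 (-0.62 ± 0.23). Herpud1 lost its call without day 5 replicate 1 or 2 (-0.51 and -0.36), without day 0 replicate 3 or 4, with edgeR (-0.52) and with library size alone (-0.17).

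Of 11 genes of the EGF family 4 rose and 2 fell (median 0.10), against 29.4% and 25.4% of all tested genes. Areg, amphiregulin, went from 0, 0, 0 and 0.119 to 1.499, 7.88 and 3.25 scaled CPM against the fall of Egf given above, and Nrg1 rose from 11.7, 9.34, 8.49 and 9.46 to 23.3, 35.4 and 23.4. Neither overlapped. The receptor Egfr was at 56.98, 58.2, 62.4 and 55.2 and 69.04, 71.9 and 48.9 and did not pass. Erbb3 fell by 0.54, and the call was lost with the covariate (-0.25), on Y-linked libraries alone (-0.16), with library size alone (-0.10) and without day 5 replicate 1 or 3 (-0.43 and -0.48). Of 16 clock genes 4 rose and 4 fell, shares near those over all tested genes (median -0.17, and 0.28 with library size alone). With the covariate 2 rose and 5 fell, and without day 5 replicate 2 those counts were 2 and 3. Hlf, an output factor of the clock, fell from 103, 132, 118 and 99.8 to 41.04, 21.2 and 33.1, and Bhlhe40, a clock repressor that also responds to stress, rose from 59.4, 73.6, 82.96 and 63.8 to 193, 269 and 154. The hour of day at which kidneys were taken is not given in the sources used here.

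Markers of other tissues were checked because whole kidneys can carry pelvis, perirenal fat or blood. Urothelial genes rose in 9 of 12 cases (median 1.38; 7 without day 5 replicate 2). Krt5, of basal urothelial cells, was at 4.51, 1.44, 4.21 and 0.774 scaled CPM at day 0 and at 18.1, 43.9 and 9.06 at day 5, and the uroplakin Upk1b at 5.19, 1.898, 4.602 and 3.51 and 16.3, 20.5 and 8.64. The 12 genes summed to 62.1, 36.1, 49.4 and 22.0 scaled CPM at day 0 and to 133, 199 and 94.8 at day 5, and their part in the Sprr rises was not tested. Of 6 adipocyte genes 5 passed and none was called; Adipoq was at 5.69, 1.52, 4.41 and 2.08 and 1.28, 11.9 and 0.0464, highest in day 5 replicate 2. None of 5 erythroid genes, 2 tested muscle genes of 6 or the 1 tested adrenal gene of 5 was called. The 1 tested pancreatic gene of 6, Cela1, fell from 155, 157, 156 and 166 to 37.7, 23.8 and 45.01.

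The 3 obstructed kidneys differed in their distance from day 0 by gene and by list. Over the 2040 autosomal genes called higher by at least 2-fold, replicate 2 was the farthest from the day 0 mean in 984, replicate 1 in 542 and replicate 3 in 514. Replicate 2 was also the nearest in 679 (33.3%), against 584 for replicate 1 and 777 for replicate 3. The median differences of these rises were close, at 1.55, 1.57 and 1.48 in replicates 1, 2 and 3. Over the 1394 such autosomal genes called lower, replicate 2 was the farthest in 699, replicate 1 in 438 and replicate 3 in 257. The nearest was replicate 3 in 658 (47.2%), replicate 2 in 413 (29.6%) and replicate 1 in 323 (23.2%). Their medians were -1.39, -1.49 and -1.30. Replicate 2 was also the farthest by list medians in several lists. The median difference of the proximal tubule list from the day 0 mean was -1.47, -2.65 and -1.16 in replicates 1, 2 and 3, and that of the tubule injury list 2.46, 3.04 and 2.17. For the distal convoluted tubule it was -0.49, -1.54 and -0.76, for immediate early genes 1.35, 2.13 and 1.43 and for cytokines 0.98, 1.69 and 0.79. Mitochondrial and matrix lists were more even, with -1.26, -1.30 and -1.11 for the nuclear subunits of oxidative phosphorylation and 2.48, 2.26 and 2.19 for matrix. T and NK cell genes ran the other way, with 0.90, 0.66 and 1.11, replicate 2 being the lowest. Replicate 2 is also the only obstructed knockout library with Y-linked transcripts, so a difference between kidneys and the transcript pattern cannot be told apart within these 3.

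**Figure D3:**
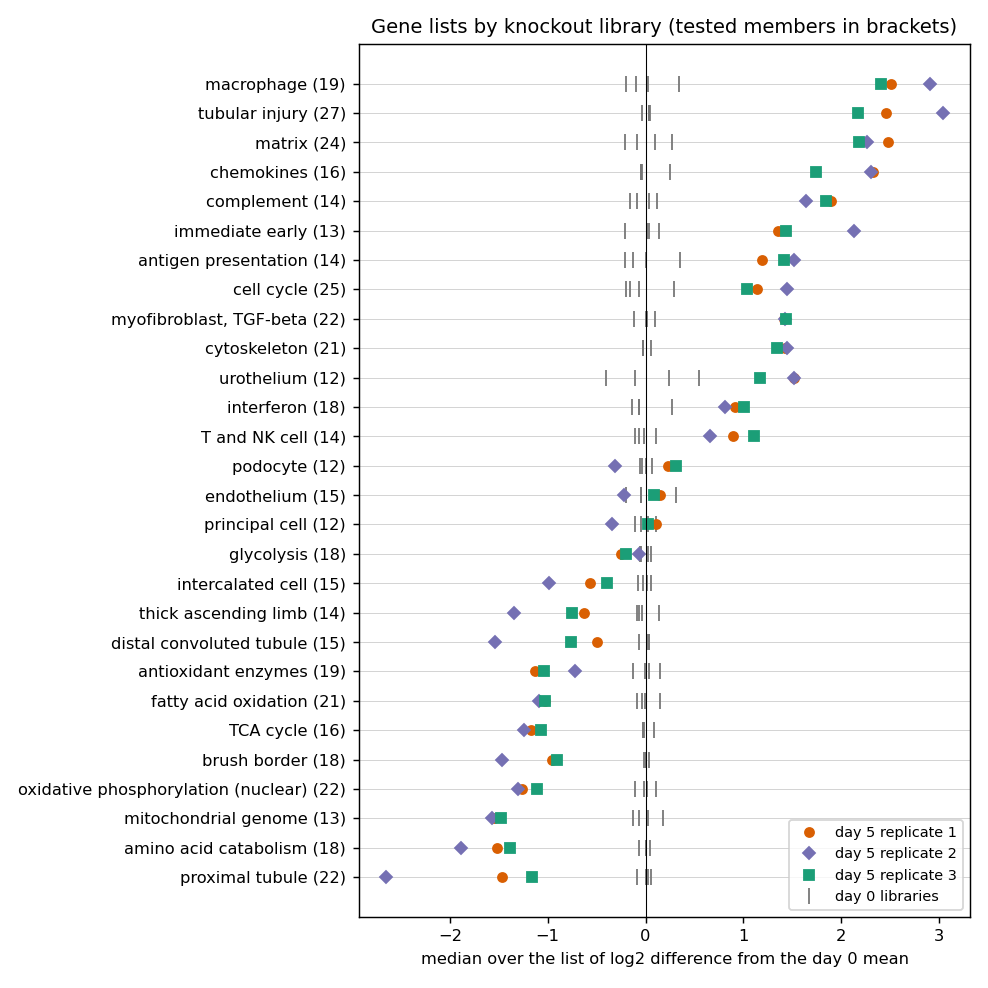
Median log2 difference from the day 0 mean over each gene list, for each knockout library, with the number of tested members in brackets. Day 5 replicate 2 (diamonds) lies beyond replicates 1 and 3 in the tubule injury and tubule segment lists, while the 3 obstructed kidneys nearly coincide for TCA cycle, mitochondrial genome and fatty acid oxidation.

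The transcript pattern was then given its own term. With the pattern as a covariate, 4885 genes were called higher (27.0%) and 4584 lower (25.3%), together 52.3%; 4472 and 4052 of them were called in the same direction without it, and no gene was called in opposite directions. On the 7 Y-linked libraries alone, which leave 1 obstructed knockout kidney whose spread is assumed to be that of the other groups, 3570 rises and 3447 falls were shared, and none was opposite. The day 5 library with Y-linked transcripts was outside the day 0 range in 13941 genes (77.1%).

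Genes whose level differs between male and female mouse kidneys moved between these fits. Of 13 listed, 8 fell and 3 rose (median -3.60), and with the covariate the median was -1.70. Slc7a13, a cystine and aspartate transporter of the late proximal tubule, was at 1013, 1058, 975 and 936 scaled CPM at day 0 and at 2.998, 113 and 2.74 at day 5. Replicate 2, with Y-linked transcripts, was far above replicates 1 and 3 and still below day 0. Its log2 fold change of -6.52 ± 1.70 (limma, adjusted p = 0.00576) was -2.71 with the covariate and -8.20 without replicate 2. Slco1a1, an organic anion carrier, had 0.441, 55.2 and 0.418 against 234, 523, 376 and 252, and Acsm3 had 1.499, 108 and 1.44 against 585, 707, 663 and 585. Their values of -6.50 and -6.40 became -2.32 and -2.15 with the covariate. With edgeR they were -4.22 and -4.10 and not called (adjusted p = 0.0727 and 0.0917), and Acsm3 also lost its call without day 5 replicate 1 or 3 (-5.44 and -5.42). Slco1a1 was not called with DESeq2 either (-4.23). Cyp4b1, a cytochrome P450, fell from 2854, 3767, 2769.8 and 2524 to 42.1, 384 and 47.4 (log2 fold change -5.00, -2.94 with the covariate, and -6.03 without replicate 2). Slc7a12, higher in females, rose from 4.39, 0.835, 1.94 and 6.31 to 116, 4.93 and 87.2, a call lost with the covariate (0.94) and without day 5 replicate 1 or 3 (2.75 and 2.96), without day 0 replicate 2 or 3, with voom and on Y-linked libraries alone. Kap fell in every obstructed kidney, to 5379, 8813 and 3569.8, with log2 fold changes of -2.90 and, with the covariate, -1.93.

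Other large falls lay outside that list. Inmt, a methyltransferase of indole amines, was at 1099, 1181, 1187 and 985 and then at 20.3, 54.5 and 28.3 scaled CPM, and its log2 fold change of -5.11 ± 0.47 (limma, adjusted p = 1.77e-06) was -4.10 with the covariate. The carboxylesterase Ces1g fell from 52.7, 33.6, 44.4 and 66.7 to 1.15, 0.641 and 0.557, and Ttr, the carrier of thyroid hormone and retinol, from 145, 235, 157 and 151 to 11.1, 11.4 and 12.3. Dnase1 fell from 514, 529, 493 and 431 to 47.6, 20.5 and 60.4 (-3.64, and -4.43 with the covariate). Each was below the day 0 range in all 3 obstructed kidneys, but lack of overlap was part of the rule for naming the largest falls. Proximal tubule genes had lower medians with the covariate, -2.32 against -1.64, and 21 of 22 fell; the distal convoluted tubule median was -1.47 against -0.88. Some genes given above as not passing were called with the covariate: Slc5a12 (-2.29), Mme (-0.75), Dpp4 (-0.60), Cdhr2 (-0.55), Cxcl12 (-0.82), Rsad2 (-0.62) and, upward, Ltbp1 (0.60). On Y-linked libraries several rises and falls given above were larger by over 1.5 times: Sprr2h (2.70), G6pdx (0.70), Pkm (0.43), Slc7a11 (1.78) and Herpud1 (-1.12).

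**Figure D4:**
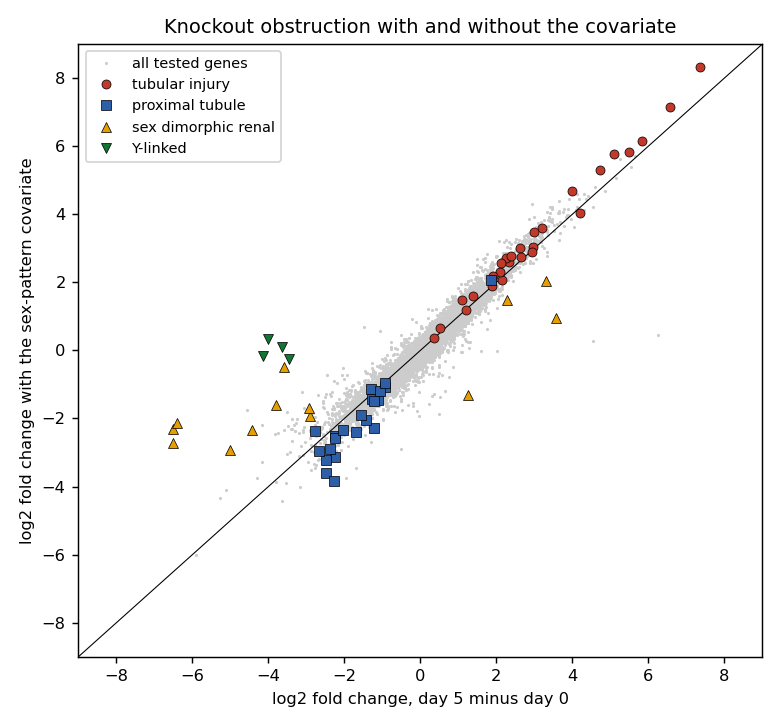
Log2 fold change of day 5 over day 0 in knockout kidney without (x axis) and with (y axis) the sex-pattern covariate, for all tested genes and 4 lists; the line marks equality. Most tubule injury genes lie above the line and most proximal tubule genes below it, and the 4 Y-linked genes move from a median of -3.82 to one of -0.03.

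The series asks how loss of Sprr2f bears on this response, so the knockout values were set beside those of wild type obstruction. There, 4440 genes were called higher (24.5%) and 4087 lower (22.6%), together 47.1%. Of the 5328 genes higher in knockout and the 4440 higher in wild type, 3843 were in both, which is 72.1% and 86.6% of them. Of the 4589 and 4087 lower genes 3466 were in both, 75.5% and 84.8%. Log2 fold changes in knockout and wild type were 7.35 and 7.89 for Havcr1, 5.83 and 6.35 for Lcn2, and 3.40 and 3.43 for Col1a1. For falling genes they were -2.24 and -2.60 for Slc34a1, -1.85 and -1.93 for Cat, and -5.91 and -6.02 for Pvalb. These values carry no term for the sex-linked transcript pattern. Y-linked transcripts were in 4 of 4 day 0 and 1 of 3 day 5 knockout libraries, but in 1 of 2 and 1 of 3 for wild type. With the covariate the knockout value of Havcr1 was 8.32. A difference in size within a pair can thus not be told apart from the pattern.

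The difference between the responses was tested as an interaction over the 12 libraries. It was called for 1 gene (0.00553%; limma, Benjamini-Hochberg adjusted), with 1374 genes at an unadjusted p under 0.05. edgeR called 1 gene and DESeq2 called 28 with a more positive and 9 with a more negative change in knockout. Simulated 4-fold differences were recovered for 81.4% of 97 genes at this design and 2-fold differences for 39.6% of 96. Differences of about 2-fold could therefore often be missed. The simulation put changes into knockout day 5 alone, without a sex-pattern effect and with a spread set by mean level. Real differences, also 4-fold ones, can be missed more often than these shares show. Sprr2f itself had log2 fold changes of 1.49 in knockout and 5.75 in wild type, and the interaction test did not call the difference (limma, adjusted p = 0.334).

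The gene called was Noct (chromosome 3, 51224447 to 51251644, plus strand), which encodes nocturnin, a phosphatase of NADPH whose transcript is rhythmic and nutrient-responsive. Knockout kidneys were at 12.9, 14.1, 16.01 and 16.3 scaled CPM at day 0 and at 26.7, 23.7 and 32.6 at day 5. The obstructed kidneys were all above (log2 fold change 0.87 ± 0.17, limma, adjusted p = 0.00104). Wild type kidneys were at 59.01 and 81.3 at day 0 and at 22.9, 35.3 and 21.8 at day 5, so there the obstructed kidneys were all below (-1.39). The difference of the changes was 2.26 on the log2 scale (limma, adjusted p = 0.0356). Over 26 alternatives it lay between 2.01 and 2.48, and 13 of them kept the call. The call was lost without any 1 of 9 libraries (each knockout day 0 library, knockout day 5 replicates 1 and 3, wild type day 0 replicate 2, wild type day 5 replicates 1 and 3; adjusted p = 0.0923 to 0.171), with library size alone (0.0620), without a filter (0.0987), against a 1.5-fold threshold (0.376) and on Y-linked libraries (0.330). The day 5 ranges of the genotypes overlapped, and the day 0 ranges did not.

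**Figure D5:**
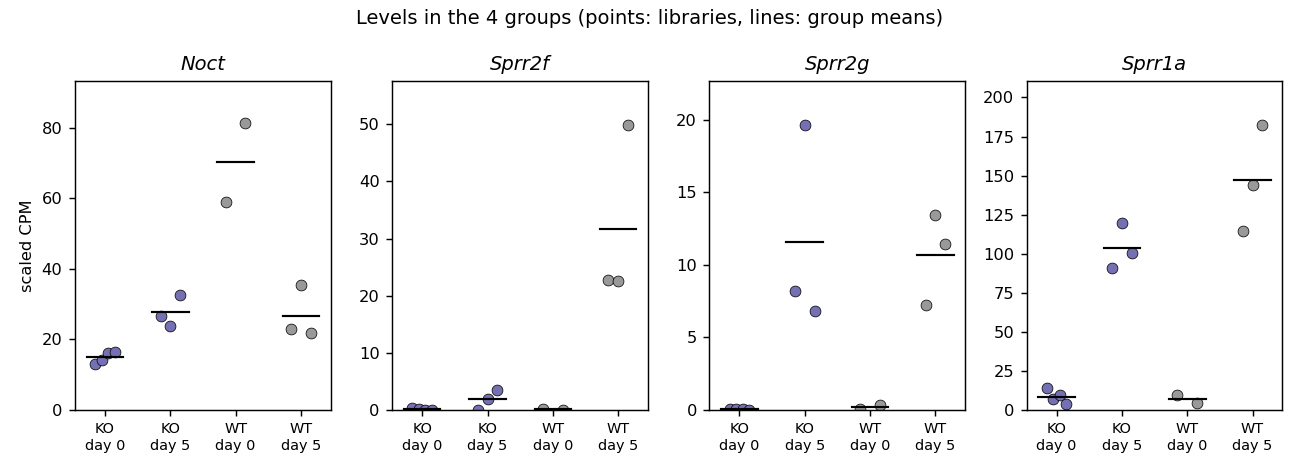
Scaled CPM of Noct, Sprr2f, Sprr2g and Sprr1a in each library of the 4 groups, with group means as lines. Noct is highest in the 2 wild type day 0 libraries (59.0 and 81.3), and Sprr2f exceeds 20 only in obstructed wild type kidneys, whereas Sprr2g and Sprr1a are high in obstructed kidneys of both genotypes.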

How the data were processed

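RNA from left kidney of 7 knockout and 5 wild type libraries was sequenced as 50-base reads. Reads were aligned with STAR, handled with SAMtools and counted with HTSeq on GRCm38.p6, per the submitters' processing notes. The authors deposited reads per gene as CPM, scaled to a fixed library total, with no depth. Each column is a whole multiple of its smallest value: 100% of 665652 values came out as whole reads within 0.001, which gave 16567256 to 19398882 reads per library and 0.0515 to 0.0604 CPM per read. Reads were counted without molecular identifiers, so floors cover counting error only. No row lacked a gene name. Whether strand was used in counting is not given in the sources used here, so overlapping genes cannot be told apart. Coordinates are from GENCODE M21 and promoters from RefSeq, both on GRCm38.

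CPM was scaled by TMM factors (edgeR 4.0.16), genes with low reads were dropped (filterByExpr, minimum count 10, minimum total 15), leaving 18093, and log2(scaled CPM + 0.5) was tested with limma 3.58.1 (trend) over 12 libraries in 4 groups in R 4.3.3, with Benjamini-Hochberg adjustment at 0.05. Values were summarised in Python 3.11.15. On the recovered reads, edgeR's quasi-likelihood test called 5350 genes higher and 4482 lower, and DESeq2 1.42.0 and voom were run as well. Other alternatives were RLE and upper-quartile factors, library size alone, pseudocounts of 0.1 and 1, no filter and a stricter one (1 CPM in 3 libraries), a fit without mitochondrial genes, a fit on the compared groups alone, the sex-pattern covariate, Y-linked libraries alone, a test against 1.5-fold, and leaving out every library in turn. Counts of list members without day 5 replicate 2 were added after seeing the data.

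The comparison, the gene lists and the tests were chosen with earlier results of these data known. Genes were named by rule: the 15 largest called rises and falls whose groups did not overlap, the 10 largest by the same rule with the covariate, up to 4 members of each list with the smallest adjusted p and any member called against its list, all Sprr genes with reads, the 8 genes with the largest spread within each day, genes read in every library of 1 day and in none of the other, genes called in the interaction, and the 10 genes with the highest CPM in each group. Other list members and motifs were chosen after their values were seen. On simulated data with the knockout design (17551 genes), 70 of 96 genes changed 2-fold and 89 of 97 changed 4-fold were recovered, with 12 unchanged genes called. The simulated reads held no sex-pattern effect. Some genes are not reported here.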

Additional observations from a re-analysis of the deposited data

Results flagged for a closer look

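The response of Noct to obstruction differed between genotypes: the knockout log2 change minus the wild type log2 change was 2.26, and the interaction test called it (limma, adjusted p = 0.0356), as did 13 of 26 alternatives.

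In 18 of 215 named genes with at least 40 reads over the day 0 libraries, 1 of the 4 knockout day 0 libraries lay far from the other 3, its gap to the nearest being a larger share of the group's range than Dixon's 95% critical value. Chance gives about 1 in 20 independent groups. The named genes share the same 4 libraries, and some were named for their spread at day 0, so the shares cannot be compared. Replicate 1 stood apart upward in Cd4 (1.48 scaled CPM), Egfl7 (42.8), Gpx8 (18.6), Nos3 (4.39) and Tmsb10 (103), and downward in Atp6v1c2 (31.5), Pdzk1 (413) and Trpv5 (15.9). Replicate 2 was apart upward in Cyp2e1 (1353), Edem1 (136), Irf9 (28.5), Pgk1 (637), Slc27a2 (4116) and Ttr (235). Replicate 3 was apart upward in Scnn1a (169). Replicate 4 was apart upward in Krt20 (1.61) and downward in Igfbp2 (1.19) and Psca (2.68).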

How the results depend on the processing

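Counts of called genes in knockout obstruction stayed within 1.5 times of 5328 rises and 4589 falls, with 2 exceptions. With library size alone there were 10114 rises and 2179 falls, and with a 1.5-fold threshold 1697 and 1419. Leaving out 1 library gave 4590 to 5267 rises and 4217 to 4808 falls. In wild type, library size alone gave 8560 and 2001, the 1.5-fold threshold 1712 and 1285, and leaving out 1 library 3534 to 4680 rises and 3440 to 4271 falls. The genotype difference was called upward for 28 genes and downward for 9 with DESeq2, for 3 upward with the covariate, and for 0 upward with library size alone, no filter, the 1.5-fold threshold or only Y-linked libraries; limma found 1374 genes at an unadjusted p under 0.05. Leaving out 1 library gave 0 to 43 upward and 0 to 64 downward.

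Of 216 named genes called in knockout obstruction, 172 kept the call in every alternative and 44 lost it in at least 1, 42 of them under the 1.5-fold threshold. Every direction that turned belonged to a gene that was not called. Adipoq became 0.34 with edgeR, 0.34 with DESeq2 and 1.80 on Y-linked libraries, and Cfd 0.14, 0.13 and 1.83. With the covariate, Alas2 became -0.52, Hba-a2 -0.021, Hbb-bs -0.34, Hbb-bt -0.64, Eif2s3y 0.32 and Kdm5d 0.11, and the last pair were 0.22 and 0.035 on Y-linked libraries. With library size alone Cish became 0.26, Mylpf 0.16, Nr3c2 0.049 and Star 0.31. Leaving out 1 library gave -1.84 to 0.40 for Adipoq, -2.31 to 0.74 for Cfd, -2.02 to 0.28 for Alb, -0.85 to 0.14 for Cish, -0.0061 to 0.51 for Hba-a2, -0.027 to 0.42 for Hbb-bs and -0.12 to 0.38 for Hbb-bt. The cause was not tested.

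No paired analysis was possible because the labels give each library its own number and no number is shared between groups. With 3 and 4 libraries, and 2 in the wild type day 0 group, changes of 2-fold can be missed. The fit on Y-linked libraries rests on 1 obstructed knockout kidney. The authors' CPM hold a share of all reads, so a change in total RNA per kidney is not measured.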
